A study of Homo sapiens with 4 samples.

Results

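The RNA levels of 44 genes of DNA damage signalling and double-strand break repair were examined in RKO cells with and without knockdown of CHD7, an ATP-dependent chromatin remodeller. The genes were chosen by symbol from general knowledge of the repair pathways, with earlier results of these data known. All 44 were among the 15357 genes in the table and among the 11955 genes with enough reads for a test. RKO is a human colon cancer cell line with wild-type p53. The 2 samples labelled vector were RKO cells infected with a control lentivirus, and the 2 samples labelled shCHD7_2 were RKO cells infected with a lentivirus that expresses the shRNA named shCHD7_2. Both groups were stable lines grown in Eagle's minimum essential medium with fetal bovine serum, and no damaging agent was given. The labels do not say whether the replicates came from separate infections or cultures, so the p-values measure the spread between these samples, which may be technical. Only 1 CHD7 shRNA was sequenced, so loss of CHD7 and any other effect of that shRNA cannot be told apart. Since p53 target genes were higher in the shCHD7_2 samples, the question was whether the genes that detect and mend breaks changed as well.

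Breaks in both DNA strands are detected by the MRE11-RAD50-NBN complex, which activates the kinase ATM, while single-stranded DNA at stalled forks and resected ends activates the kinase ATR. These kinases slow the cell cycle and stabilise p53. Breaks are then joined directly by non-homologous end joining or copied from the sister chromatid by homologous recombination, in which BRCA1, PALB2 and BRCA2 prepare the single-stranded DNA for strand exchange, and the Fanconi anaemia proteins connect the repair of DNA crosslinks to recombination. Many of these genes are transcribed mostly in S phase under E2F control, and p53 acts downstream of the kinases, in part through genes such as CDKN1A, RRM2B and DDB2.

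The libraries held between 15734666 and 16068642 estimated counts, and CHD7 itself was 85.4 and 91.0 CPM (counts scaled to the size of the library, with TMM factors) in the vector samples and 55.5 and 50.1 CPM in the shCHD7_2 samples. The log2 fold change of CHD7 was -0.74 (SE 0.088, adjusted p = 4.15e-06 by edgeR's quasi-likelihood test), a fall of 40.1%. The summed level of 5 epithelial markers in the table was 115 to 124 CPM in the vector samples and 119 to 134 CPM in the shCHD7_2 samples, with CDH1 under 1 CPM and KRT19 and VIL1 not in the table. The 2 fibroblast markers in the table, COL1A1 and LUM, reached at most 0.439 CPM together, and of 3 blood cell markers only CD68, which other cells also express, was above 1 CPM. Only 4 of the epithelial markers and CD68 had enough reads for a test, and none of these had an adjusted p under 0.05. CD68 had a log2 fold change of 0.20 and an unadjusted p under 0.05 in edgeR.

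Of the 44 repair and checkpoint genes, 1 rose (RAD51C) and 1 fell (RAD51B) in the shCHD7_2 samples at an adjusted p under 0.05, and neither changed by 1.5-fold. These 2 genes were 4.55% of the members, beside 11.5% of all genes tested, of which 4.94% rose and 6.54% fell. With a fold of at least 1.5 added, 2.88% of all genes and 0 of 44 members were called by edgeR, and 0 members met an unadjusted p under 0.05 with that fold, while 11 members and 3035 of all genes had an unadjusted p under 0.05. The count with a fold of at least 1.5 was 0 in DESeq2 and in every other setting tried as well. RNA was measured in bulk, so fewer cells with a transcript and less transcript per cell cannot be told apart.

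The log2 fold changes of the 44 members ran from -0.37 to 0.43, with their 10th and 90th percentiles at -0.18 and 0.22, compared with -0.28 and 0.28 for all genes. There were 21 positive and 23 negative values (17 of the members changed sign in at least 1 other setting), with a median of -0.03 under TMM scaling beside 0.001 for all genes, and the sign of that median turned to 0.012 with library totals, when the median of all genes was 0.045. For 40 of 44 members the 95% interval of the fold change lay wholly inside a 1.5-fold change in either direction (a log2 of 0.585), against 80.5% of all genes. The 4 members whose interval reached past that size were RAD51C, RAD51B, FANCM and FANCB. The samples of the groups did not overlap for 21 members, or 47.7%, near the 53.7% of all genes tested.

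**Figure D1:**
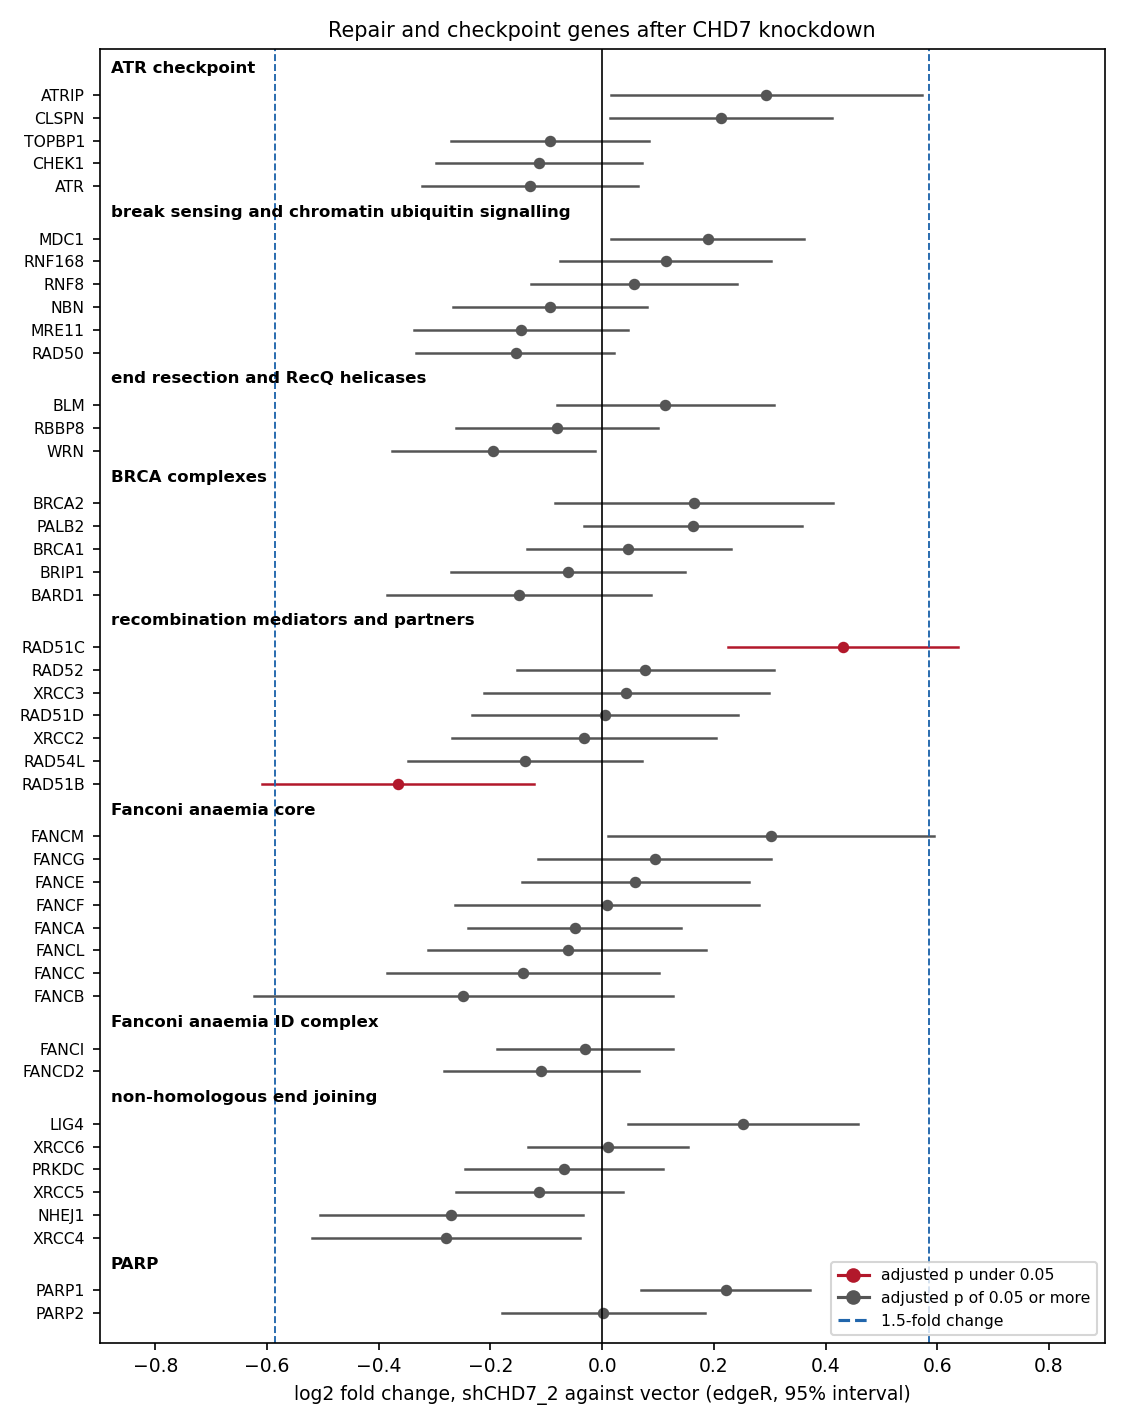
The log2 fold change (x axis, shCHD7_2 against vector, edgeR) of the 44 genes in rows grouped by role, with points for estimates, bars for 95% intervals and dashed lines at a 1.5-fold change in either direction. RAD51C (0.43) and RAD51B (-0.37), in red, were the only members with an adjusted p under 0.05, and no interval lay wholly beyond a dashed line.

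The levels of the members were compared per length, in FPKM as deposited (fragments per kilobase of transcript, scaled to the fragments of the library). The Ku subunits that bind broken ends were at the top, XRCC6 (Ku70) at 267 and 267 FPKM in the vector samples and 276 and 281 FPKM in the shCHD7_2 samples, and XRCC5 (Ku80) at 176 and 191 against 181 and 169 FPKM. PRKDC, the catalytic subunit of the DNA-dependent protein kinase that Ku recruits, was at 59.7 and 64.6 against 68.2 and 54.0 FPKM, and the break sensor PARP1 was at 58.5 and 56.6 against 69.7 and 68.6 FPKM. PRKDC was above PARP1 in both vector samples and below it in both shCHD7_2 samples, so these neighbours had no fixed order. At the low end, FANCB had 1.91 and 1.82 against 1.92 and 1.37 FPKM, FANCM had 1.79 and 2.09 against 2.55 and 2.27 FPKM, and BRCA2 had 1.92 and 2.37 against 2.77 and 2.19 FPKM. The vector values of FANCM overlapped those of both FANCB and BRCA2, so the order of these 3 was not fixed either.

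**Figure D2:**
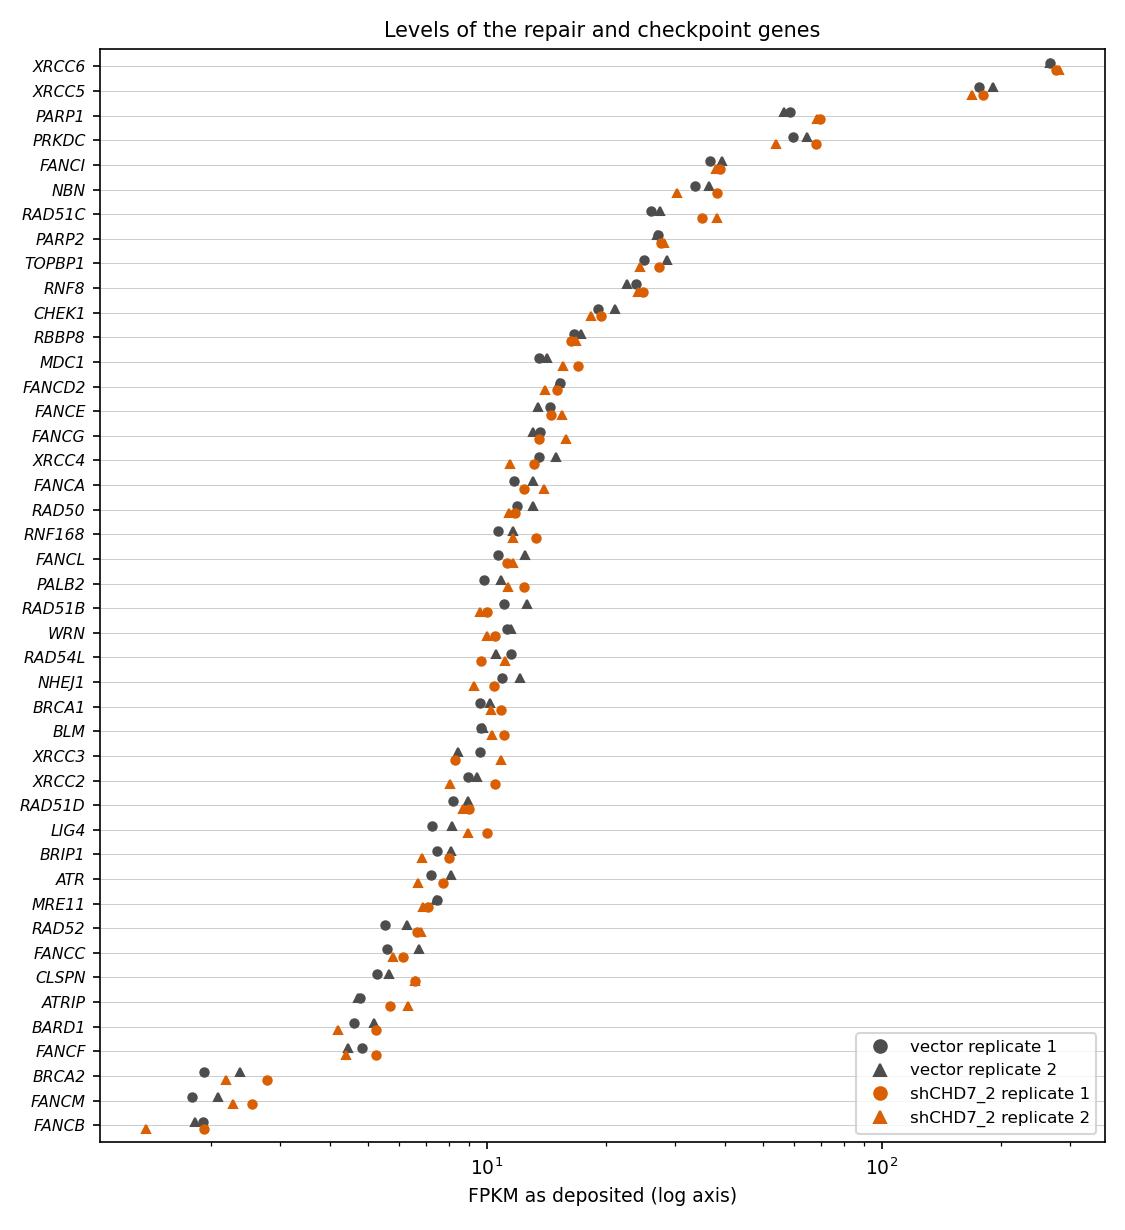
Level of each of the 44 genes in every sample, in FPKM on a log axis, ordered by the mean of both groups (grey vector, orange shCHD7_2, circles replicate 1, triangles replicate 2). The genes spread from 1.37 FPKM (FANCB, shCHD7_2 replicate 2) to 281 FPKM (XRCC6, shCHD7_2 replicate 2), and the shift between the groups was small against that spread.

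Among 7 mediators of recombination and their partners, which act in strand exchange after BRCA2, 1 rose, 1 fell and 5 did not pass the test. RAD51C, which forms a complex with RAD51B, RAD51D and XRCC2 and another with XRCC3 (chr17:58692573-58735611, GRCh38), had 26.7 and 26.7 CPM in the vector samples and 33.8 and 38.2 CPM in the shCHD7_2 samples. Both shCHD7_2 samples were above both vector samples, which were nearly equal. Its log2 fold change was 0.43 (SE 0.10, 95% interval 0.23 to 0.64, adjusted p = 0.00549, edgeR), a rise of 34.9%, and it passed in 13 of 16 other settings. Among these 13 were the replicate block with crossed numbers and both fits with offsets for length and GC content, all chosen after the data were seen. The call was lost when shCHD7_2 replicate 2 was left out and in both settings with no filter on low values.

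RAD51B, which is present in the first of these complexes (chr14:67819779-68730218, GRCh38), had 19.9 and 22.9 CPM in the vector samples and 16.8 and 16.5 CPM in the shCHD7_2 samples. Both shCHD7_2 samples were below both vector samples, and the 2 shCHD7_2 values were close together. Its log2 fold change was -0.37 (SE 0.12, adjusted p = 0.0459, edgeR), a fall of 22.4%, which kept its sign in all 16 other settings but passed in 6 of them. Among these 6 were the replicate block with crossed numbers and both fits with offsets for length and GC content. Those fits were chosen after the data were seen and called 23.7% to 31.4% of all genes. The fall did not pass in DESeq2, with the replicate block or with any of vector replicate 2, shCHD7_2 replicate 1 and shCHD7_2 replicate 2 left out.

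The other 5 genes of this group were XRCC2, XRCC3, RAD51D, the strand-annealing protein RAD52 and the motor protein RAD54L, with log2 fold changes between -0.14 (RAD54L) and 0.08 (RAD52). The groups of XRCC2, XRCC3, RAD51D and RAD54L overlapped. XRCC3 had 23.6 and 20.9 CPM in the vector samples and 19.8 and 26.1 CPM in the shCHD7_2 samples.

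All 5 genes of the BRCA complexes, which act at resected ends, missed the threshold, with a median log2 fold change of 0.05. BRCA2, a mediator of strand exchange on resected DNA, had the highest value at 0.16 (SE 0.12, adjusted p = 0.425, edgeR), with 21.9 and 27.0 CPM in the vector samples and 30.6 and 24.3 CPM in the shCHD7_2 samples. Its groups overlapped. BARD1, the partner of BRCA1 in a ubiquitin ligase, had the lowest value at -0.15 (SE 0.11, adjusted p = 0.45, edgeR). BRCA1 was nearly level, with 57.3 and 62.1 CPM against 63.9 and 59.5 CPM and a 95% interval of its log2 fold change from -0.14 to 0.23. PALB2, which bridges BRCA1 and BRCA2, was the only gene of the 5 whose groups did not overlap, and the helicase gene BRIP1 had a log2 fold change of -0.06.

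None of 5 genes of the ATR checkpoint passed the test, and 3 of the 5 had negative values, with a median of -0.09. ATRIP, the partner that brings ATR to single-stranded DNA, had 11.8 and 11.7 CPM in the vector samples and 13.7 and 15.2 CPM in the shCHD7_2 samples. Its groups did not overlap, and its log2 fold change was 0.29 (SE 0.13, adjusted p = 0.171, edgeR). The kinase gene ATR had the lowest value of the group at -0.13 (SE 0.093), with overlapping groups. CLSPN, the adaptor through which ATR activates CHEK1, was at 30.5 and 33.7 CPM against 37.6 and 36.9 CPM, a log2 fold change of 0.21 (adjusted p = 0.163, edgeR). The kinase gene CHEK1 and the ATR activator TOPBP1 had values of -0.11 and -0.09.

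Break sensing and the ubiquitin marks laid on chromatin around breaks were covered by 6 genes, none of which passed. MDC1, the adaptor that reads phosphorylated histone H2AX, had the highest log2 fold change at 0.19 (SE 0.083, adjusted p = 0.155, edgeR), with both shCHD7_2 samples (108.9 and 99.5 CPM) above both vector samples (89.5 and 93.2 CPM). RAD50, the SMC-like subunit of the MRE11 complex, had the lowest at -0.16 (SE 0.086, adjusted p = 0.268, edgeR), with 77.9 and 85.8 CPM against 74.4 and 72.6 CPM. The nuclease gene MRE11 (-0.15) and the adaptor gene NBN (-0.09) were also negative, while the ubiquitin ligase genes RNF8 (0.06) and RNF168 (0.11) were positive. For all 6 genes the 95% interval stayed inside a 1.5-fold change.

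Of 3 genes of end resection and RecQ helicases, the helicase gene WRN was lowest at -0.19 (SE 0.088, adjusted p = 0.163, edgeR) and the helicase gene BLM was highest at 0.11 (SE 0.094). The resection factor RBBP8 (CtIP) lay at -0.08. The groups of all 3 did not overlap, as for 53.7% of all genes tested, yet each fold change was small and none passed.

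The 8 genes of the Fanconi anaemia core, whose complex attaches ubiquitin to FANCD2 and FANCI, split into 4 positive and 4 negative values with a median of -0.02. FANCM, the translocase that anchors the complex on DNA, had 11.1 and 10.7 CPM in the vector samples and 14.7 and 12.3 CPM in the shCHD7_2 samples. Its groups did not overlap, and its log2 fold change was 0.30 (SE 0.14, adjusted p = 0.18, edgeR). FANCB was lowest at -0.25 (SE 0.18, adjusted p = 0.421, edgeR), with 7.09 and 6.59 CPM against 6.55 and 4.95 CPM, the lowest read counts of any member. FANCA, FANCC, FANCE, FANCF, FANCG and the ubiquitin ligase gene FANCL lay between -0.14 (FANCC) and 0.09 (FANCG). The substrates of the complex were close to level, FANCD2 at -0.11 (SE 0.084) and FANCI at -0.03 (SE 0.076).

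In non-homologous end joining, 0 of 6 genes passed the edgeR test, 3 had an unadjusted p under 0.05, and the 3 pointed in different directions. An unadjusted p under 0.05 was also found for 11 of the 44 members and for 3035 of all 11955 genes tested. XRCC4, the scaffold of the ligase, had 20.2 and 21.4 CPM in the vector samples and 18.0 and 16.3 CPM in the shCHD7_2 samples, a log2 fold change of -0.28 (SE 0.12, adjusted p = 0.129, edgeR). Both shCHD7_2 samples were below both vector samples. LIG4, the ligase that XRCC4 binds, had 29.3 and 32.7 CPM against 38.9 and 35.0 CPM, a log2 fold change of 0.25 (SE 0.099, adjusted p = 0.109, edgeR). Here both shCHD7_2 samples were above both vector samples, so the values of the 2 partners differed in sign. NHEJ1 (XLF), which bridges the ends together with XRCC4, was at 21.5 and 24.0 CPM against 19.9 and 17.9 CPM, with a log2 fold change of -0.27 (adjusted p = 0.135, edgeR). XRCC5 (-0.11), XRCC6 (0.01) and PRKDC (-0.07), the genes of the DNA-dependent protein kinase, were near 0.

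PARP1, which marks breaks with poly(ADP-ribose), had 227 and 220.3 CPM in the vector samples and 262 and 260 CPM in the shCHD7_2 samples. Both shCHD7_2 samples were above both vector samples, and the replicates of each group were close. Its log2 fold change was 0.22 (SE 0.073, adjusted p = 0.0512, edgeR), just outside the threshold, and it passed in 8 of 16 other settings with values from 0.20 to 0.27. Among these 8 were the replicate block with crossed numbers and both fits with offsets for length and GC content, all chosen after the data were seen. PARP2, the paralog of PARP1, was level at 46.4 and 46.4 CPM against 45.7 and 47.3 CPM, a log2 fold change of 0.002 with a 95% interval from -0.18 to 0.19.

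**Figure D3:**
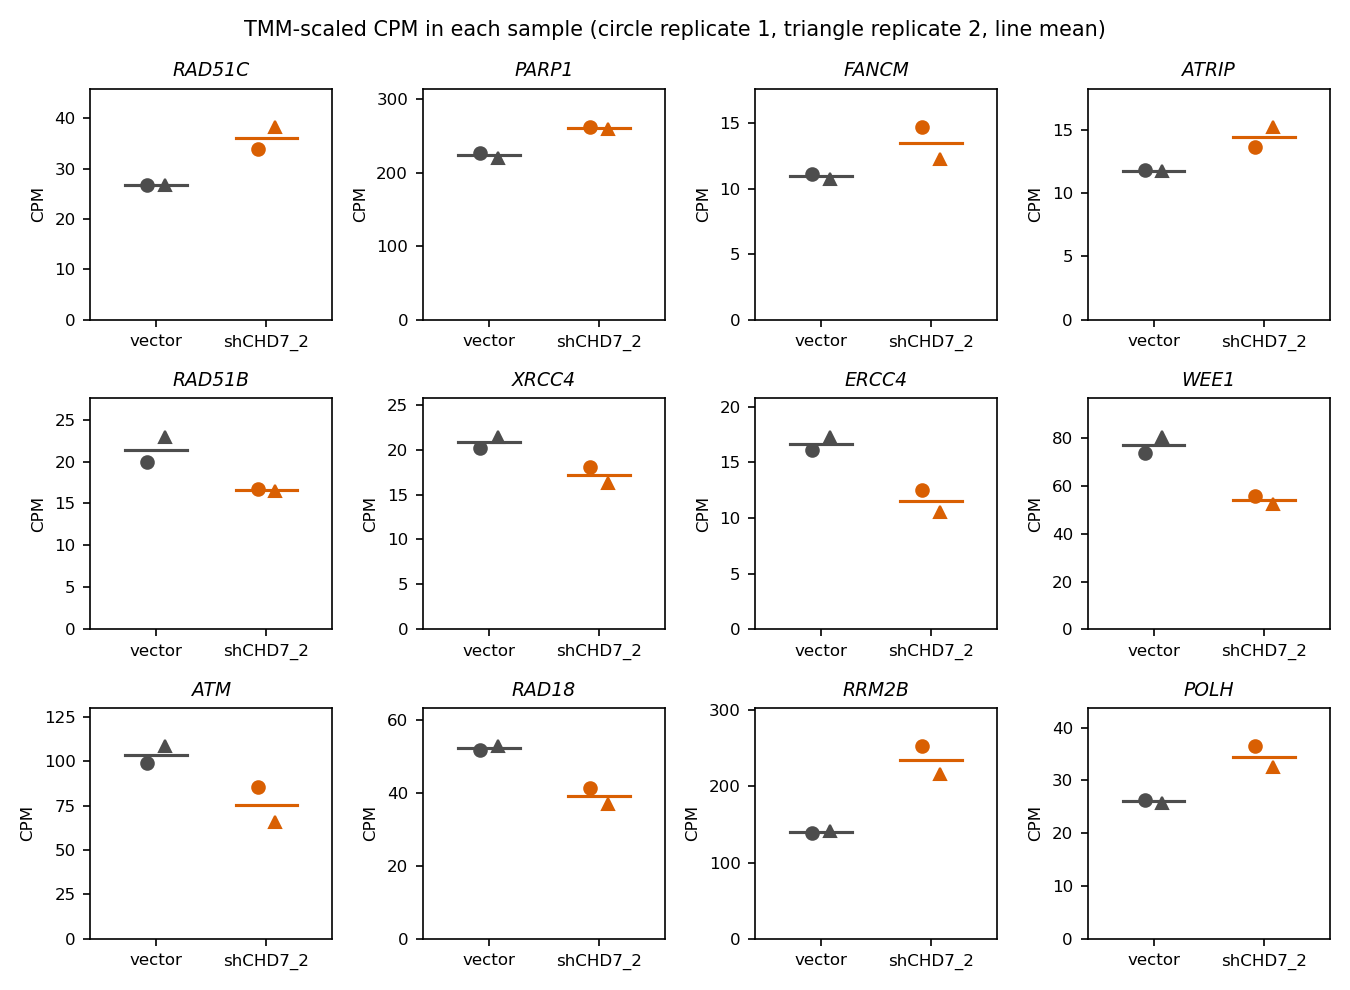
TMM-scaled CPM of 12 genes in each of the 4 samples (circles replicate 1, triangles replicate 2, lines the group mean, each y axis starting at 0): 6 members and, among other repair genes and p53 targets, ERCC4, WEE1, ATM, RAD18, RRM2B and POLH. In none of the 12 panels did the groups overlap, but the 12 genes were picked by their changes. Of all genes tested, 53.7% had groups that did not overlap. WEE1 fell from 73.8 and 80.6 CPM to 55.7 and 52.5 CPM while RRM2B rose from 138 and 141 CPM to 252 and 217 CPM.

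Members whose transcription is known to peak in S phase were counted apart, since p53 and CDKN1A are known to hold cells before that phase. Of 15 such members, 0 passed the edgeR test, 1 (CLSPN) had an unadjusted p under 0.05, 11 had negative values and 4 positive ones. Of all 11955 genes tested, 5962 had negative values and 3035 had an unadjusted p under 0.05 in edgeR. The median log2 fold change of the 15 members was -0.06. The 95% intervals of 14 of the 15 stayed inside a 1.5-fold change, with FANCB the exception. Of 39 members with a promoter in RefSeq (GRCh38.p14, 250 bases before to 50 after the annotated start), 7 held at least 1 of the E2F-type words TTTCCCGC, TTTCGCGC, TTTGGCGC and TTTGCCGC on either strand, or 17.9%, beside 6.95% of 9457 genes tested with a promoter. Promoters were not listed for NBN, WRN, FANCI, XRCC5 and PRKDC. The words of 4 members are shown here in capitals, because such words are the kind of site through which S-phase genes are known to be controlled, and each is printed on the strand of its gene.
CLSPN (GRCh38.p14, chr1:35769969-35769990, minus strand): tggctggGCGGGAAAgcaagaa
FANCD2 (GRCh38.p14, chr3:10026428-10026449, plus strand): gggcctgGCGGGAAAgtcgaaa
TOPBP1 (GRCh38.p14, chr3:133661934-133661955, minus strand): gcggttgGCGCGAAAgtcggtt
XRCC2 (GRCh38.p14, chr7:152676106-152676127, minus strand): gttggtgGCGGGAAAgttgagt
The log2 fold changes of these 4 genes were 0.21, -0.11, -0.09 and -0.03 in that order. The 7 members with a word had a median of -0.05 and the members without one a median of 0.03, which is a description and no test.

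A wider list of 74 other checkpoint and break repair genes, also chosen with earlier results of these data known, gave the surroundings of the 44. Of these, 73 were in the table and tested (H2AX under its older symbol H2AFX, SHLD3 not matched), 7 fell and 1 rose, so that 11.0% changed, near the 11.5% of all genes. Their median log2 fold change was -0.005. WEE1, the kinase that restrains CDK1 before mitosis, had 73.8 and 80.6 CPM against 55.7 and 52.5 CPM, a log2 fold change of -0.51 (SE 0.088, adjusted p = 0.000396, edgeR). ATM, the kinase activated by breaks, had 99.0 and 108.3 CPM against 85.5 and 65.5 CPM, a log2 fold change of -0.46 (SE 0.10, adjusted p = 0.00406, edgeR). In both genes the 2 shCHD7_2 samples were below the vector samples, but the 2 shCHD7_2 values of ATM lay far apart, and its call was lost without shCHD7_2 replicate 2. RAD18, a ubiquitin ligase for PCNA at stalled forks, fell by 24.9% (51.7 and 52.8 CPM against 41.4 and 37.0 CPM), and the nuclease gene ERCC4 fell by 30.7% (16.1 and 17.3 CPM against 12.5 and 10.6 CPM). CDC25B, a phosphatase that promotes mitotic entry, fell by 21.7%, SMC6, of the SMC5/6 complex, by 19.2%, and XRCC1, a scaffold of single-strand break repair, by 18.8%. RAD51AP1, which promotes strand exchange, was the 1 gene that rose, by 28.9% (28.8 and 28.6 CPM against 38.9 and 35.0 CPM, adjusted p = 0.0152, edgeR). Over the 16 other settings WEE1 and RAD18 passed in 14, CDC25B in 12, ATM in 11, ERCC4 and RAD51AP1 in 9, SMC6 in 7 and XRCC1 in 5. Each of these counts includes the replicate block with crossed numbers and both fits with offsets for length and GC content, all chosen after the data were seen.

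The p53 targets stood beside the repair genes as follows. Of 32 targets, 21 rose and 0 fell, or 65.6%, all 32 had positive values, and the median log2 fold change was 0.40, while the median of the 44 members was near 0. The list includes 5 genes that the study picked out on these samples (CDKN1A, RRM2B, TP53INP1, CD82 and DUSP6). The rest of the list was chosen with earlier results of these data known. Its direction, share and median are therefore not independent evidence. The smallest p-values with a fold of at least 1.5 belonged to GDF15, TP53INP1, CDKN1A, DUSP6 and RRM2B, of which only GDF15 was not picked out by the study. GDF15, a secreted stress cytokine, had 42.6 and 33.9 CPM in the vector samples and 105 and 117 CPM in the shCHD7_2 samples, and the p53 cofactor gene TP53INP1 had 15.72 and 14.95 CPM against 56.6 and 43.6 CPM. CDKN1A, the CDK inhibitor p21, had 127.7 and 112.5 CPM against 243.5 and 252 CPM, and DUSP6, an ERK phosphatase, had 198 and 199.7 CPM against 326 and 314 CPM. In all 4 genes both shCHD7_2 samples were above both vector samples. Among the targets that act in DNA repair, the ribonucleotide reductase subunit gene RRM2B rose by 67.6% (138 and 141 CPM against 252 and 217 CPM). POLH, a polymerase that copies damaged DNA, rose by 32.5% (26.3 and 25.7 CPM against 36.4 and 32.6 CPM, adjusted p = 0.00885, edgeR), and DDB2, a sensor of UV lesions, rose by 26.3% (31.8 and 30.6 CPM against 37.5 and 41.3 CPM, adjusted p = 0.0235, edgeR). All 3 had both shCHD7_2 samples above both vector samples. PCNA (0.22, adjusted p = 0.0575), GADD45A (0.18, adjusted p = 0.18) and the lesion sensor XPC (0.12, adjusted p = 0.427) did not pass in edgeR.

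**Figure D4:**
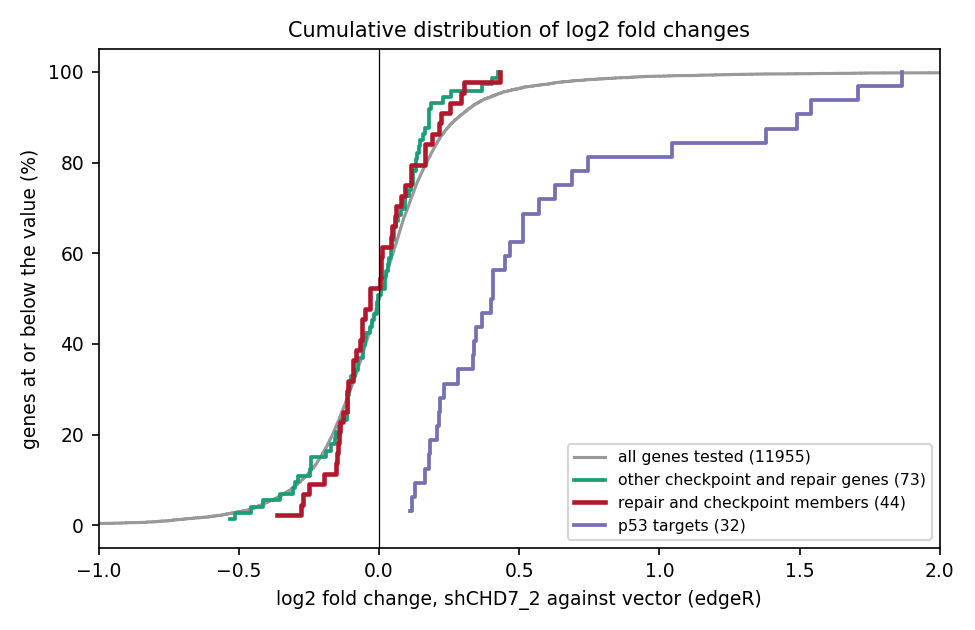
Share of genes (y axis, %) at or below each log2 fold change (x axis, shCHD7_2 against vector, edgeR) for all 11955 genes tested, the 44 members, 73 other checkpoint and repair genes and 32 p53 targets. The curve of the members rises steeply around 0 within -0.37 and 0.43, while the whole curve of the p53 targets lies to the right of 0, from 0.11 to 1.87.

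Earlier work on these data found 3 words of 7 bases (the word AGCTATT, the word GAAGCTA and the word GCTATTA) more often in the 3′ UTRs of genes that were lower in the shCHD7_2 samples. The words were chosen with this same contrast, so the counts that follow are a description with no test. In the longest annotated 3′ UTR of each gene (GENCODE 29), 11 of 44 members held at least 1 of them, or 25.0%, beside 22.4% of 11691 genes tested with a 3′ UTR. Of the wider list, 21 of 73 genes held one. The sites of the 5 genes of the wider list that fell and hold a word, and of 3 members, are printed because the values below are read against them. The 3 members printed all had negative values. RAD51D, the only member that holds all 3 words, is not printed, and its log2 fold change was 0.01. A single site a gene is printed, although WEE1 holds 3 such places in this 3′ UTR and ATM and ERCC4 hold 2 each. The words are in capitals, adjoining words run together, and each site is on the strand of its gene.
WEE1 (GRCh38, chr11:9589257-9589277, plus strand): gaaaagcAGCTATTtgccttt
ATM (GRCh38, chr11:108368653-108368673, plus strand): aaatagtGAAGCTAtcagaga
RAD18 (GRCh38, chr3:8880606-8880627, minus strand): gaatccaAGCTATTAaacaaaa
ERCC4 (GRCh38, chr16:13951508-13951529, plus strand): ggcagtaAGCTATTActaattc
CDC25B (GRCh38, chr20:3805953-3805973, plus strand): ggtttggAGCTATTcaagagg
XRCC4 (GRCh38, chr5:83353324-83353344, plus strand): agcagccGCTATTAccgtatc
BARD1 (GRCh38, chr2:214726263-214726283, minus strand): actttgtAGCTATTtttctgt
CHEK1 (GRCh38, chr11:125656095-125656115, plus strand): gagtaagGAAGCTAtaagaaa

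Of the 11 members with a word (ATR, CHEK1, MRE11, BARD1, BRIP1, RAD51D, XRCC2, FANCA, FANCC, FANCD2 and XRCC4), 0 passed the edgeR test and 1 (XRCC4) had an unadjusted p under 0.05. Negative values were found for 10 of the 11, and the median of the 11 was -0.11. The exception was RAD51D (0.01), which holds all 3 words. Of the 10, BRIP1, XRCC2 and FANCA changed sign in some other settings. Of the 33 members without a word, 13 had negative values, and their median was 0.04. Among all genes tested, values were negative for 1717 of 2613 with a word and for 4133 of 9078 without one. RAD51B and RAD51C hold no word. In the wider list, 5 of 21 genes with a word fell, or 23.8%, and these were WEE1, ATM, RAD18, ERCC4 and CDC25B, while of 52 genes without a word 2 fell and 1 rose. Of all genes tested, 16.1% of those with a word and 3.82% of those without fell, with medians of -0.08 and 0.02.

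A word in the longest 3′ UTR need not be in the transcript that the cells use. All 4 annotated coding transcripts of XRCC4 with a 3′ UTR hold a word. Only 1 of 5 of MRE11 and of RAD51D, 1 of 9 of FANCA and 1 of 4 of FANCD2 do. Of the other genes with a printed site, WEE1 holds a word in 2 of 3 such transcripts, CDC25B in 4 of 5 and BARD1 in 5 of 7. The counts were 1 of 2 for ERCC4, 3 of 8 for CHEK1, 2 of 8 for ATM and 1 of 5 for RAD18. The table gives 1 value a gene, so the transcript behind each value was not seen. What part the words, CHD7 or transcript length have in these values was not tested.

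The differences between replicates of the same group, in vector as in shCHD7_2, followed transcript length and GC content. In both features the members stood apart from other genes. The median transcript length of the members was 4586 bases and their median GC content 43.4%, against 3417 bases and 48.7% for all genes tested with both values. With offsets for length and GC content in edgeR, a setting chosen after seeing the data, 11 members passed (CLSPN, MDC1, WRN, PALB2, BRCA2, RAD51B, RAD51C, FANCM, LIG4, NHEJ1 and PARP1), 8 higher and 3 lower. That was 25.0% of the members beside 27.2% of all genes, and no member reached 1.5-fold.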

How the data were processed

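RNA-seq libraries (oligo-dT selected) of 2 vector and 2 shCHD7_2 samples of RKO cells were compared. The authors deposited estimated counts and FPKM values for 15357 genes, and the submitters' processing notes name hg38, Bowtie2, RSEM and DESeq2; versions, annotation and strand are not given in the sources used here. Without strand, reads of overlapping genes cannot be told apart. Between 13.6% and 14.7% of the deposited estimated counts were not whole and were rounded. Groups came from the labels. Genes with low counts were removed with filterByExpr (11955 remained), libraries were scaled by TMM, and edgeR 4.0.16 (R 4.3.3) tested the groups by quasi-likelihood, with Benjamini-Hochberg adjustment over all genes tested. A gene changed at an adjusted p under 0.05. The fit was tested on simulated data. DESeq2 1.42.0, limma 3.58.1 on log2(FPKM + 1) and other filters, scalings and sample sets were alternatives, 16 in all. With 2 samples against 2, an exact permutation test of a single gene cannot go below p = 0.333, so none is given.

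The numbers of the replicates did not pair the samples (correlation of the deviations of same-numbered samples -0.198). Within groups, log2 CPM correlated at 0.994 or more, and replicates differed beyond counting noise (chi-square per gene 3.94 in vector, 6.05 in shCHD7_2), so all 4 were counted.

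Members and lists were chosen with earlier results of these data known. The rule gave values in every sample to members with an adjusted p under 0.05 and the 5 with the largest absolute log2 fold change. It named the highest and the lowest member of each role group as examples, not all with every sample, and up to 5 genes a direction with the smallest p among other repair genes and p53 targets changed by at least 1.5-fold. Values of BRCA1, PALB2, BRIP1, CLSPN, CHEK1, TOPBP1, MRE11, NBN, RNF8, RNF168, RBBP8, XRCC3, RAD52, RAD54L, RAD51D, FANCC, FANCG, NHEJ1, XRCC5, XRCC6, PRKDC, WEE1, ATM, RAD18, ERCC4, CDC25B, SMC6, XRCC1, RAD51AP1, POLH, DDB2, PCNA, GADD45A and XPC were chosen after they were seen. The length of each word (7 bases) and the words came from earlier work on these samples. A further gene is not reported here and is in no count of the wider list. The 3′ UTRs came from GENCODE 29 and promoters from RefSeq (GRCh38.p14).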

Additional observations from a re-analysis of the deposited data

How the results depend on the processing

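Of the 704 values of single members under 16 other settings, 626 kept their sign and their side of the threshold, 28 gained a call, 13 lost one and 37, from 17 members, changed sign with no call on either side. In all, 14 members passed in at least 1 other setting and 30 in none. Members changed, beside 2 in the report, were 1 in DESeq2, 0 without a filter on low counts (10 with an unadjusted p under 0.05), 0 in limma on FPKM without a filter (7 unadjusted) and 0 to 2 with 1 sample left out, where 0 came without shCHD7_2 replicate 2 (8 unadjusted) and the lone sample was assumed to vary like the others. The wider list gave 4 in DESeq2, 0 and 0 without a filter (15 in edgeR and 13 in limma unadjusted), 5 in both filtered limma fits and 4 to 10 with a sample left out beside 8. Counts in the same order (DESeq2, both without a filter, a sample left out) were, for all genes, 800, 197, 24 and 610 to 1702 beside 1373, and p53 targets gave 6 and 1 without a filter and 12 to 20 with a sample left out beside 21. Among the fits with a sample left out, the one without vector replicate 2 gave the lowest counts of all genes and of p53 targets. The median of the members, -0.03, was 0.012 with library totals, 0.027 and 0.028 in limma on FPKM with pseudocounts of 1 and 0.1, 0.027 without a filter there, and -0.076 to 0.007 with a sample left out. With library totals 878 genes rose and 608 fell, against 591 and 782. CHD7 missed the threshold in limma without a filter (-0.51, adjusted p = 0.104).

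The replicate block gave 755 genes, 1 member (RAD51C) and 4 genes of the wider list. Chosen after seeing the data, the block with crossed numbers gave 3751 genes, 11 members, 1 S-phase member and 25 of the wider list. Offsets for length and GC content, also chosen then, gave 3247 genes, 11 members, 2 S-phase members and 18 of the wider list, and with the replicate block 2838, 6, 1 and 13. The cause of these shifts was not tested. With 2 samples a group, the median member's 95% interval reached 0.197 to each side on the log2 scale, so smaller changes of such a gene were not detectable. That width goes with an unadjusted p of 0.05, and a call needed an adjusted p under 0.05. Larger changes could therefore miss too, such as PARP1 at 0.22, LIG4 at 0.25 and XRCC4 at -0.28 in edgeR.

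The log2 fold changes that changed sign were as follows. With library totals XRCC2 was 0.012 and FANCI 0.013. Without a filter on low counts PARP2 was -0.001. With offsets for length and GC content XRCC3 was -0.020 and XRCC6 -0.005, and with the replicate block added these were -0.025 and -0.005. In limma on FPKM, FANCA was 0.082 with a pseudocount of 1, filtered or not, and 0.088 with 0.1, and FANCI was 0.014 in all 3 fits. With a sample left out, the values of members that changed sign ran from -0.010 to 0.105 for BRCA1, -0.014 to 0.325 for BRCA2, -0.186 to 0.075 for BRIP1, -0.188 to 0.007 for TOPBP1 and -0.208 to 0.010 for NBN. In the same fits RAD51D ran from -0.047 to 0.058, XRCC2 from -0.233 to 0.139 and XRCC3 from -0.167 to 0.223. For the Fanconi anaemia genes the ranges were -0.116 to 0.020 (FANCA), -0.001 to 0.116 (FANCE), -0.119 to 0.121 (FANCF), -0.032 to 0.205 (FANCG), -0.173 to 0.057 (FANCL) and -0.086 to 0.025 (FANCI). XRCC6 ran from -0.007 to 0.023, PRKDC from -0.246 to 0.086 and PARP2 from -0.022 to 0.023.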

Other observations

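The members moved together between replicates of the same group. In vector replicate 2, 32 of 44 members, or 72.7%, were above vector replicate 1, against 51.7% of all genes with annotated length and GC content, and in shCHD7_2 replicate 2, 32 of 44 members were below shCHD7_2 replicate 1, against 49.9% of all genes. The median log2 ratio of the members was 0.107 between the vector replicates and -0.081 between the shCHD7_2 replicates. Genes are not independent samples, and across them the difference between the shCHD7_2 replicates had a Spearman correlation of -0.446 with transcript length and 0.553 with GC content over 11697 genes, and -0.426 and 0.571 over the 44 members. For the difference between the vector replicates the correlations were 0.242 with length and -0.524 with GC content over the 11697 genes. Over the 44 members they were 0.255 and -0.357. PRKDC had 894 CPM in shCHD7_2 replicate 1 and 713 CPM in replicate 2, a gap wider than that between the vector replicates at 808 and 877 CPM.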
